A study of Sus scrofa with 24 samples.

Results

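The genes described here encode enzymes of cholesterol synthesis: HMGCS1, MVK, MVD, IDI1, FDPS, FDFT1, SQLE, LSS and DHCR7. They were chosen by gene symbol in the annotation of the Affymetrix Snowball pig array, without a rule on the measured levels. Earlier results of these data were known when they were chosen. Of these 9 genes, 8 had a named probe set, out of 13755 named genes on the array, and IDI1 had none and was not analysed here. The 8 genes were measured by 12 of the 47845 probe sets, and 6 of the genes (HMGCS1, FDPS, FDFT1, SQLE, LSS and DHCR7) passed a filter on low signals, under which 18 or more of the 24 arrays had to reach a log2 level of 6. MVK and MVD did not pass it. Over the whole array 5868 probe sets passed.

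Each array held liver RNA of 1 fetus, and all 24 fetuses were F2 animals of a cross between German Landrace and Pietrain pigs, sampled at 63 dpc (days post conception). The study set growth-restricted (IUGR) against appropriately grown (AGA) siblings of the same sex, but the labels give only a fetus number for each array. Growth group, sex and dam were therefore not mapped, their part in any value below was not tested, and levels are given over all 24 livers as lowest, median and highest. Siblings entered the tests as if they were independent, so all p-values are approximate.

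Cholesterol is built in the cytosol and endoplasmic reticulum from acetyl-CoA. HMGCS1 and the kinases and decarboxylase of the mevalonate pathway make 5-carbon isoprene units, FDPS joins them to farnesyl diphosphate, FDFT1 and SQLE commit the chain to sterols as squalene and its epoxide, LSS closes the rings, and later enzymes, DHCR7 among them, turn lanosterol into cholesterol. Transcription of these genes is known to be raised together by the membrane-bound factor SREBP-2 (SREBF2) when sterols in the cell are low. In the liver the product serves membranes, lipoproteins and bile acids.

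The deposited values are log2 levels from the RMA algorithm, which corrects background, makes arrays alike in distribution and condenses the probes of a probe set into 1 value. A gene was represented by its probe set with the highest mean. Array medians lay between 2.81 and 2.89. The 95th percentile of the 69 background control probe sets lay between 6.52 and 6.89, so levels below this range overlapped with the upper background. This range is not the level of a typical control, as the median over all controls and arrays was 1.55. Control levels rose with the GC count in the control's name, by 0.306 to 0.332 log2 units per count. All 9 hepatocyte markers passed the filter, as did 8 of 11 erythroid markers; the fetal liver also forms blood. In such whole tissue, fewer cells of a type and less RNA per cell cannot be told apart. Fetuses 311 and 312 had the most extreme arrays on the first principal component (20.9% of the variance) and also had the highest summed levels of the 4 measured granulocyte markers, 12.6 in both livers against a median of 9.82 over all livers on the log2 scale.

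HMGCS1, which condenses acetyl-CoA and acetoacetyl-CoA to HMG-CoA, had its lowest log2 level of 8.82 in the fetus labelled Le377, a median of 9.19 and its highest of 9.45 in fetus 363. The lowest and the highest liver thus differed 1.55-fold. Fetuses 320 and 355 lay next above the lowest, at 8.89 and 8.92, and fetus 340 next below the highest, at 9.36.

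MVK, the mevalonate kinase, ranged between 5.02 in fetus 274 and 6.20 in fetus 303 with a median of 5.72, and reached the limit of 6 in 5 of 24 arrays. MVD, the decarboxylase that yields isopentenyl diphosphate, ranged between 4.87 in fetus Le377 and 5.53 in fetus 338 with a median of 5.30 and never reached the limit. All MVD and MVK levels lay below the upper background named above.

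FDPS, the farnesyl diphosphate synthase, had its lowest level of 7.61 in fetus 324, a median of 7.94 and its highest of 8.40 in fetus 281. Fetus 303 followed at 8.38, and the third highest liver, fetus 311, lay clearly below these at 8.17. The whole span was 1.73-fold.

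FDFT1, the squalene synthase, ranged between 8.21 in fetus 274 and 8.82 in fetus 303 with a median of 8.52, a 1.53-fold span. Fetus 281, the highest in FDPS, was second highest in FDFT1, at 8.69. SQLE, the squalene epoxidase, which is a rate-limiting step of the pathway, ranged between 8.31 in fetus 320 and 9.08 in fetus 311 with a median of 8.57, a 1.70-fold span. Its second highest liver was fetus 312, at 8.95, so the 2 livers highest in SQLE were those highest in granulocyte markers.

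LSS, the lanosterol synthase, ranged between 6.26 in fetus 327 and 6.71 in fetus 281 with a median of 6.43. Its 1.37-fold span was the narrowest of the 6 genes past the filter, and its levels lay within or below the upper background. DHCR7, the 7-dehydrocholesterol reductase, ranged between 6.62 in fetus 274 and 7.80 in fetus 272 with a median of 7.43. The level in fetus 274 lay within the upper background, so the 2.27-fold span to it is not exact. The next lowest liver, fetus 307, was at 7.16, and the span without fetus 274 was 1.56-fold. The median span over all filtered probe sets was 1.65-fold; the 10th and 90th percentiles were 1.37-fold and 2.39-fold. The spans of 3 of the 6 enzymes lay above that median and those of 3 below it.

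**Figure D1:**
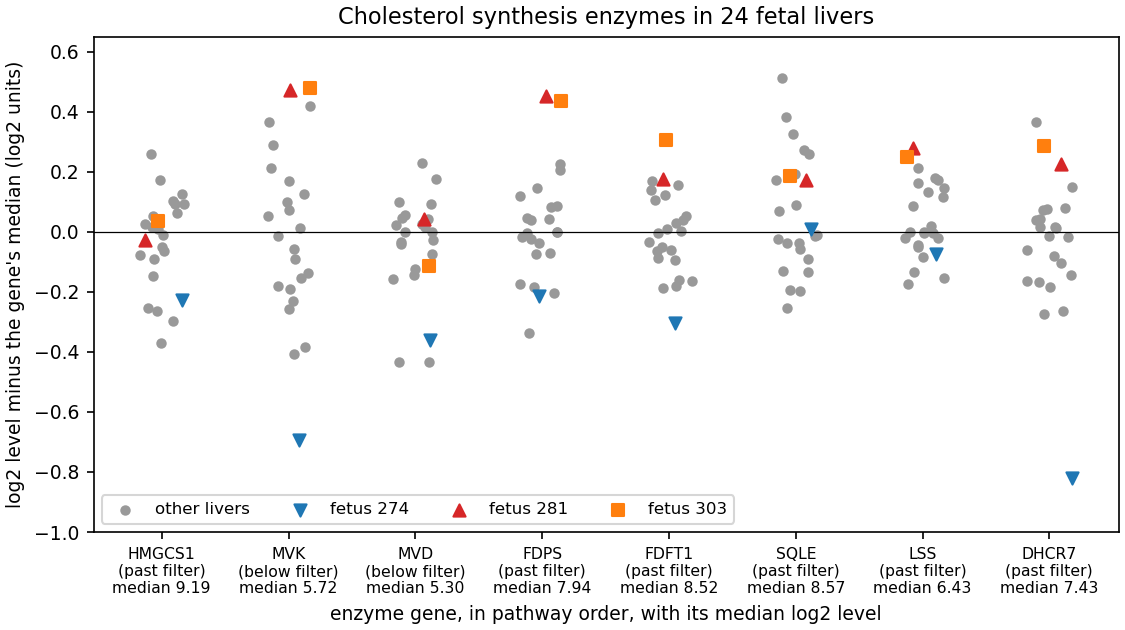
Log2 level of each enzyme gene minus its own median over the 24 livers (vertical axis, log2 units), with 1 point per liver and the genes in pathway order. Fetuses 281 and 303 lie high for FDPS, FDFT1, LSS and DHCR7 but not for HMGCS1, and fetus 274 lies below all other livers for FDFT1 and DHCR7, while all MVK and MVD points are levels below the upper background.

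The same livers returned at both ends of several genes. Fetuses 281 and 303 were each among the 3 highest livers for 4 of the 6 genes past the filter, namely FDPS, FDFT1, LSS and DHCR7. They were also among the 3 highest for some genes that are not enzymes of the pathway, such as LCAT, SREBF2, MBTPS1, NPC1 and ACLY. Their arrays stood at -11.9 and -9.4 on the first principal component, on the same side as fetuses 311 and 312, at -18.1 and -17.8. The part of such array-wide differences in their high enzyme levels was not tested. Fetus 274 was among the 3 lowest for FDPS, FDFT1 and DHCR7, fetus 320 for HMGCS1, FDPS and SQLE, and fetus Le377 for HMGCS1, FDFT1 and DHCR7. Fetus 274 also had the highest summed level of the 8 erythroid markers past the filter, 13.9 against a median of 13.6 over all livers on the log2 scale, while fetuses 281 and 303 stood at 13.5 in both cases. It had the lowest summed level of the 5 stellate and mesenchymal markers past the filter, 8.76 against a median of 9.63, and its sum of the 9 hepatocyte markers was 15.4 against a median of 15.6. The part of these markers in its low enzyme levels was not tested.

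Whether the enzymes varied together was asked with Pearson's r over the 24 livers, each tested against all filtered probe sets with a permutation test of 100000 resamples and Benjamini-Hochberg adjustment over all 35200 correlations. All 15 pairs among the 6 enzymes had a positive r, between 0.01 and 0.59 with a median of 0.31, beside a median of 0.05 for the same enzymes with all filtered probe sets. The sign did not hold for every pair under other settings. Spearman's rho was 0 for HMGCS1 with SQLE and -0.03 for SQLE with DHCR7, and with the mean of all probe sets of a gene HMGCS1 had an r of -0.10 with FDPS, -0.01 with LSS and -0.16 with DHCR7. None of the 15 pairs passed an adjusted p of 0.05 in this permutation test, in limma or with Spearman's rho, beside 0.0426% of all 35200 correlations in the permutation test, 0.0739% in limma and 0% with rho. At an unadjusted p under 0.05 the count was 4 of 15 by the permutation test, 4 by limma and 0 by rho, beside 13.2% of all correlations by the permutation test.

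The closest pair was FDFT1 with DHCR7, at an r of 0.59 (permutation p = 0.00196, adjusted p = 0.159). Its rho was 0.35 (permutation p = 0.0942), and its r was 0.44 without fetus 274 and 0.31 without fetuses 274 and 303, the 2 livers farthest from the FDFT1 median. FDPS had an r of 0.47 with FDFT1, 0.44 with DHCR7 and 0.42 with SQLE. Without fetuses 281 and 303, which lay farthest from the FDPS median, these were 0.18, 0.25 and 0.41. FDPS with LSS likewise had an r of 0.33 over all livers and -0.06 without those fetuses. The r of FDPS with FDFT1, DHCR7 and LSS was thus lower without these 2 livers, and that with SQLE changed little. As the 2 were picked for lying farthest out, r can also fall without them in a pair that varies together.

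SQLE had the 2 lowest values of the 15, an r of 0.02 with LSS and 0.01 with DHCR7. SQLE also had an r of 0.48 to 0.58 with the 4 granulocyte markers MPO, S100A8, S100A9 and S100A12, each at an unadjusted permutation p under 0.05 and none past the adjusted threshold (lowest adjusted p = 0.17), where 14.4% of all filtered probe sets had such an unadjusted p with SQLE. Without fetuses 311 and 312 these values lay between -0.21 and 0.11. HMGCS1, the first enzyme, had an r of 0.10 to 0.31 with the other 5.

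MVK, which lay below the filter, had an r of 0.74 with FDPS, 0.64 with DHCR7, 0.51 with HMGCS1 and 0.49 with FDFT1. Without the 2 livers farthest from the MVK median these were 0.66, 0.38, 0.41 and 0.19. As all MVK levels lay below the upper background, these values are given as a description. When the limit was lowered to 5 so that it entered the test, the pair of MVK with FDPS had a permutation p of 6e-05 and an adjusted p of 0.0896 and was not called, beside 0.067% of all probe sets called with MVK. MVD met the rule used here for separate clusters and was given no r.

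**Figure D2:**
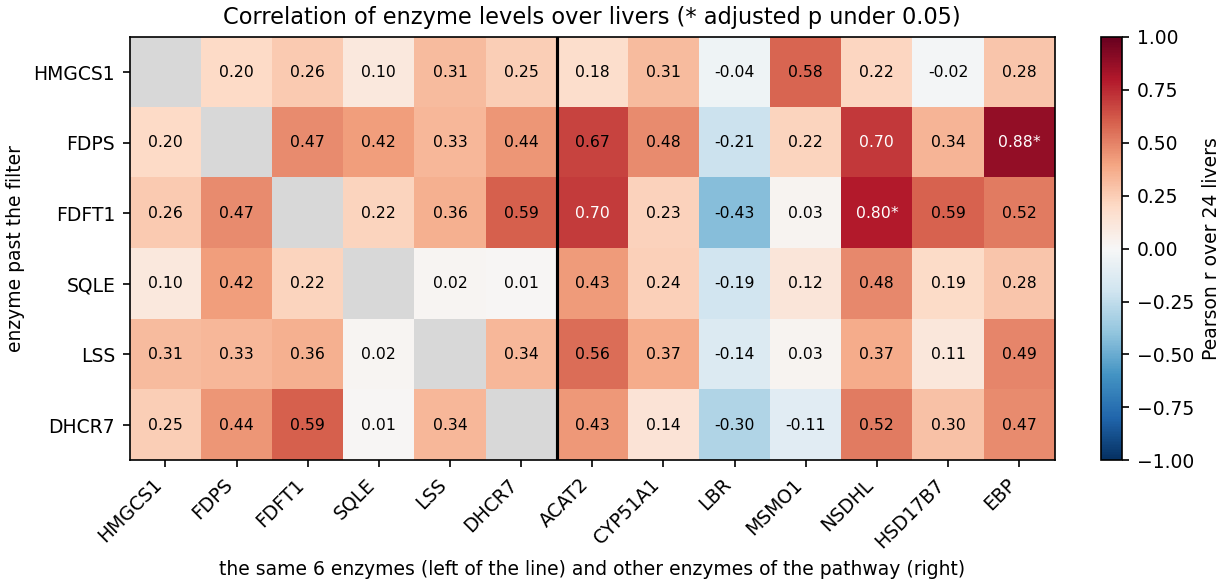
Pearson r over 24 livers between the 6 enzymes past the filter (rows) and the same 6 enzymes or 7 other enzymes of the pathway (columns), with the value printed in each cell and an asterisk where the adjusted permutation p was under 0.05. The 2 asterisks are FDPS with EBP and FDFT1 with NSDHL, and the LBR column is negative in all 6 rows.

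Of 12 other enzymes of the pathway, 8 had a named probe set and 7 passed the filter. Among their 42 correlations with the 6 enzymes, 34 were positive and the median r was 0.29. The adjusted threshold was passed by 2 of 42, both positive, and an unadjusted p under 0.05 by 17 of 42, or 40.5%, beside the 13.2% over all probe sets.

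FDPS with EBP was the closest of these. EBP, the sterol isomerase that shifts the double bond of the sterol ring, had its lowest log2 level of 8.64 in fetus 324, the liver lowest in FDPS, a median of 8.92 and its highest of 9.35 in fetus 281, the liver highest in FDPS. The r was 0.88 (permutation p = 1e-05, the smallest that 100000 resamples can give, adjusted p = 0.0293) and the rho 0.78 (permutation p = 3e-05). The r lay between 0.84 and 0.93 when any 1 liver was left out and was 0.78 without fetuses 281 and 303. Both EBP probe sets past the filter gave the same value to 2 decimals, and their r with each other was 0.89. FDPS called 0.119% of all filtered probe sets, 7 in number.

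FDFT1 with NSDHL was the other pair. NSDHL, a dehydrogenase of the C4 demethylation of sterols, ranged between 7.77 in fetus 274 and 8.44 in fetus 303 with a median of 8.08, so that the same livers marked both ends as for FDFT1. The r was 0.80 (permutation p = 1e-05, adjusted p = 0.0293), the rho 0.71 (permutation p = 0.00012), and the r without fetuses 274 and 303 was 0.66. FDFT1 called 0.0341% of all filtered probe sets, 2 in number. This pair depended on the probe set: with the other 2 NSDHL probe sets past the filter FDFT1 had an r of 0.56 and 0.42, and the third FDFT1 probe set had an r of 0.31 with the NSDHL probe set named first.

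**Figure D3:**
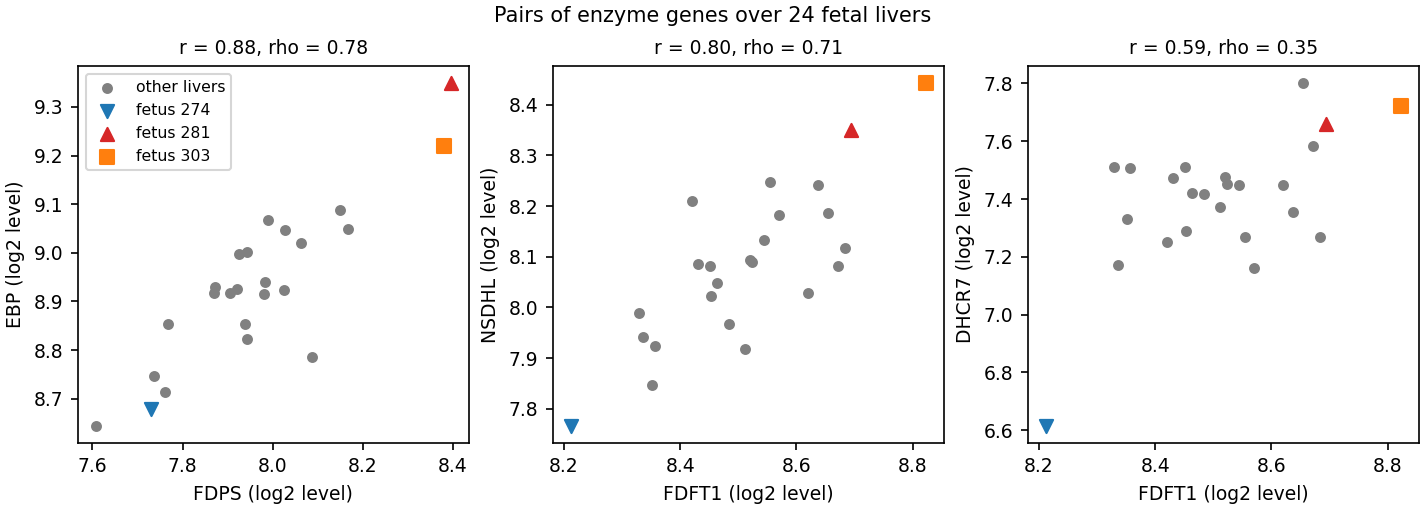
Log2 levels of 3 pairs of enzyme genes, with 1 point per liver. FDPS with EBP and FDFT1 with NSDHL form a slope over all livers, with r of 0.88 and 0.80, while the r of 0.59 of FDFT1 with DHCR7 was 0.44 without fetus 274, at the lower left.

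ACAT2, the cytosolic thiolase that supplies acetoacetyl-CoA, had an r of 0.70 with FDFT1 (adjusted permutation p = 0.088) and 0.67 with FDPS (adjusted permutation p = 0.115) and was not called. MSMO1, the sterol C4 oxidase, had an r of 0.58 with HMGCS1 but between -0.11 and 0.22 with the other 5 enzymes. LBR, which carries a sterol reductase activity beside its role as a nuclear envelope protein, had a negative r with all 6, between -0.43 and -0.04. None of these was called.

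Probe sets of the same enzyme did not always give the same picture. The first and second FDFT1 probe sets had an r of 0.64 with each other, but only 0.17 and 0.10 with the third, although all 3 passed the filter. The other DHCR7 probe set lay below the filter and had an r of 0.57 and a rho of 0.20 with the one used. The other HMGCS1 probe set had levels of 1.15 to 2.11 and an r of -0.53 with the one used.

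The regulators of the pathway were read from a list of 7 genes of SREBP processing, of which 5 passed the filter. None of their 30 correlations was called, and the median r was 0.22. An unadjusted permutation p under 0.05 was reached by 5 of the 30, or 16.7%, beside 13.2% of all correlations. SREBF2, the factor best known for this pathway, had an r of 0.07 to 0.43 with the 6 enzymes. SREBF1, whose main targets are genes of fatty acid synthesis, had an r of 0.70 with DHCR7 and 0.65 with FDPS (adjusted permutation p = 0.132 and 0.134). Its rho with DHCR7 was 0.38, and its r without fetuses 272 and 274 was 0.42. INSIG1, which retains the SREBP complex when sterols are plentiful, had an r between -0.27 and 0.33.

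Genes of sterol handling outside synthesis gave 1 call, among the 12 correlations of cholesteryl ester turnover (median r 0.27). An unadjusted permutation p under 0.05 was reached by 6 of the 12, all positive, beside 8.9% of all correlations in that direction. Of these, 5 belonged to LCAT and 1 to the lysosomal lipase gene LIPA, with HMGCS1. LCAT, the plasma enzyme that esterifies cholesterol on lipoproteins, was called with FDPS at an r of 0.77 (permutation p = 1e-05, adjusted p = 0.0293). It ranged between 7.79 in fetus 274 and 8.60 in fetus 281 with a median of 8.13. The rho was 0.60 (permutation p = 0.00224), and the r without fetuses 281 and 303 was 0.56. The other 2 LCAT probe sets past the filter had an r of 0.49 and 0.54 with FDPS. None of the correlations was called for sterol uptake and transport (24 correlations, median r 0.22), sterol efflux (12, median 0.18), bile acid synthesis and transport (24, median 0.17), the isoprenoid branch (18, median 0.01) or RNF139, the 1 gene of enzyme degradation past the filter (6, median -0.06). At an unadjusted p under 0.05 these counts were 3, 2, 1, 1 and 0 by the same permutation test. They made up 12.5%, 16.7%, 4.17%, 5.56% and 0% of the lists in turn, beside 13.2% of all correlations. In limma none of these correlations was called either.

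Fatty acid synthesis, which draws on the same cytosolic acetyl-CoA, had a median r of 0.33 over 5 genes past the filter, with 29 of 30 correlations positive. With 1 probe set per gene, 0 were called by permutation or limma. An unadjusted permutation p under 0.05 was reached by 9, or 30%, all positive, beside 8.9% of all correlations in that direction. Of these 9, 4 were with FDFT1, which had such a p in either direction with 17.5% of all filtered probe sets. ACLY, which makes that acetyl-CoA from citrate, had an r of 0.67 with FDPS. Another ACLY probe set past the filter had an r of 0.78 with FDPS, which was called by limma (adjusted p = 0.0237) and by a permutation test of 5000000 resamples (adjusted p = 0.0344) but not with 100000 resamples (adjusted p = 0.0621). ACLY with FDPS thus depended on the probe set and the test. Of the same list, SCD, the stearoyl-CoA desaturase, had an r of 0.65 with DHCR7.

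**Figure D4:**
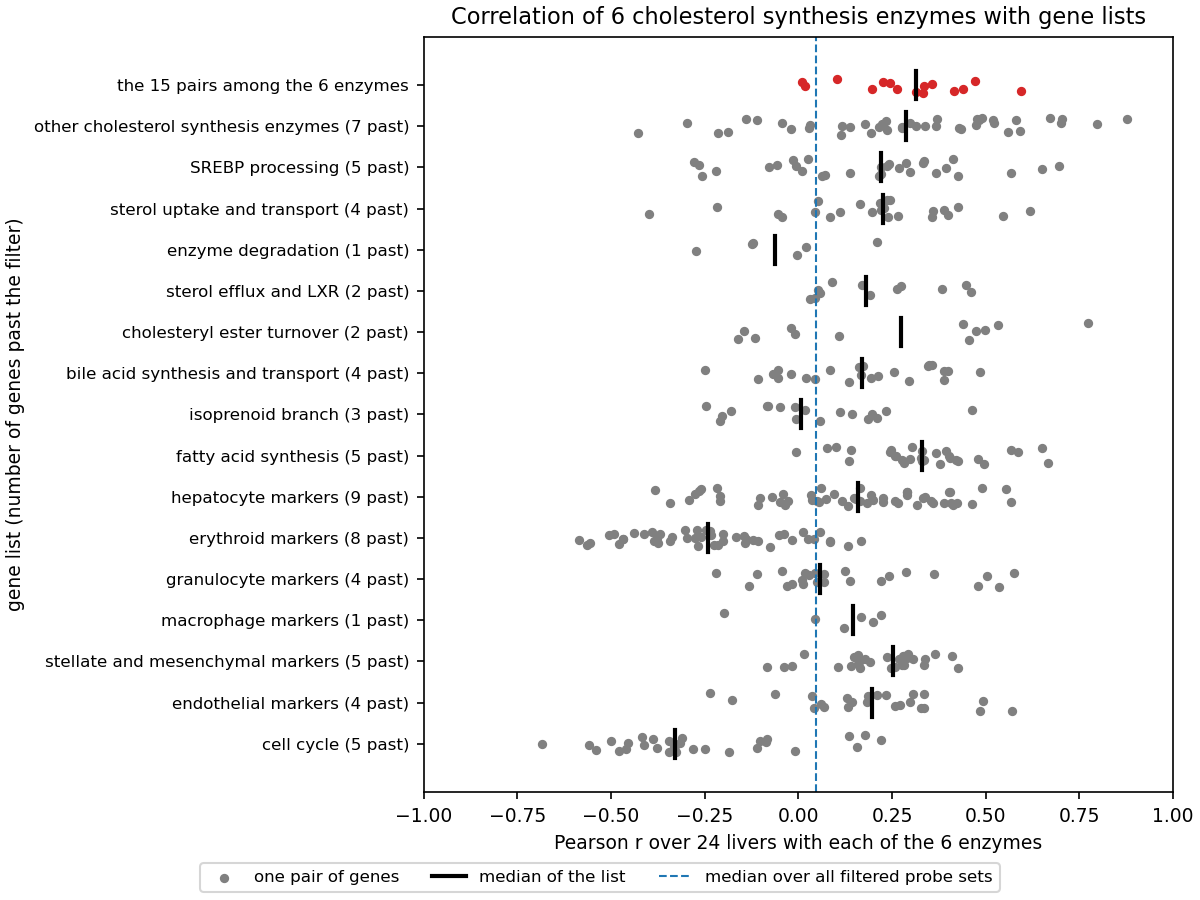
Pearson r over 24 livers (horizontal axis) between each of the 6 enzymes and each gene past the filter, with 1 point per pair, gene lists in rows, black bars at list medians and a dashed line at the median over all filtered probe sets, 0.05. Medians for the enzymes themselves, the other enzymes of the pathway and fatty acid synthesis lie near 0.3, and those of the erythroid and cell cycle lists lie at -0.24 and -0.33.

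The marker lists of other cells were read beside these values. The 8 erythroid markers past the filter had a median r of -0.24 with the enzymes, with 10 of 48 correlations negative at an unadjusted permutation p under 0.05 and none positive, or 20.8% beside 4.25% of all correlations in that direction. Their summed level ranged between 13.4 and 13.9 on the log2 scale. The 5 cell cycle genes past the filter had a median r of -0.33, with 9 of 30, or 30%, negative at an unadjusted p under 0.05, and the lowest was FDFT1 with CDK1, the mitotic kinase, at -0.68 (adjusted permutation p = 0.115). Of these 9, 4 were with FDFT1, which had such a p in either direction with 17.5% of all filtered probe sets. HMGCS1 differed: its median r was 0.13 with the cell cycle genes and -0.001 with the erythroid markers, with 0 at such a p in both lists. The median r was 0.16 for hepatocyte, 0.25 for stellate and mesenchymal, 0.20 for endothelial, 0.14 for macrophage and 0.06 for granulocyte markers, and no biliary marker passed the filter. No correlation with any probe set of a marker list or cell cycle gene was called by permutation or limma, and the part of cell composition in the joint variation of the enzymes was not tested. On the first principal component SQLE had an r of -0.55, FDPS -0.50 and FDFT1 -0.38.

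Over all filtered probe sets of other genes, 15 of 35200 correlations were called, 14 positive and 1 negative. HMGCS1 called 0.017% of the probe sets, the protein kinase gene PIM1 alone, at an r of -0.78 and a rho of -0.75 (adjusted permutation p = 0.0469). SQLE called 0.017%, the liver gene OIT3 alone, at an r of 0.77 and a rho of 0.77 (adjusted permutation p = 0.0469). LSS called 0 probe sets by the permutation test, limma or rho, with 382 of 5867 at an unadjusted permutation p under 0.05. DHCR7 called 0.0682%, namely SLC35D1, a nucleotide sugar transporter of the endoplasmic reticulum, at 0.83, the peroxisomal isomerase PECI (ECI2 in RefSeq) at 0.78 and 2 unnamed probe sets. The r of DHCR7 with SLC35D1 was 0.64 without fetus 274, and with 5000000 resamples its adjusted p was 0.0515, so that it was no longer called. Beside EBP and LCAT, FDPS called LONP2, a peroxisomal protease, at 0.82, PPIF, the mitochondrial cyclophilin, at 0.81, VPS39 at 0.77 and PPIA, the cytosolic cyclophilin, at 0.75. PPIA lost its call with 5000000 resamples (adjusted p = 0.07) and in limma (adjusted p = 0.0691), and VPS39 in limma (adjusted p = 0.0628). At an unadjusted permutation p under 0.05 the share of probe sets was 3.09% for HMGCS1, 23.3% for FDPS, 17.5% for FDFT1, 14.4% for SQLE, 6.51% for LSS and 14.1% for DHCR7. The genes outside the lists were named after their values were seen.

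The 3373 named genes past the filter other than the enzymes were also ordered by their mean r with the 6 enzymes, as a description with no test. NSDHL came first with a mean r of 0.51. ACAT2 and EBP, like NSDHL on the list of other pathway enzymes used here, had ranks 5 and 7 with 0.50 and 0.49. The others among the first 10 were ECHS1, a mitochondrial fatty acid oxidation enzyme, at 0.51, RAI14 at 0.51, PGAP2 at 0.50, 0610007P14RIK (C7H14orf1 in RefSeq) at 0.49, the aminotransferase GOT1 at 0.47, TMEM97, a membrane protein that binds sterols, at 0.47, and the gap junction gene GJB1 at 0.47. All 10 had a positive r with each of the 6 enzymes. At the other end stood CCNE2, a cyclin of the G1/S transition, at -0.42, TFRC, the transferrin receptor abundant in erythroid cells, at -0.41, the condensin gene NCAPG at -0.41, CHD2 at -0.41 and PPP6R3 at -0.41, each with a negative r with all 6. Not all genes of the pathway stood near the top. Among its other enzymes CYP51A1 had a mean r of 0.29, HSD17B7 one of 0.25, MSMO1 one of 0.15 and LBR one of -0.22. The regulator INSIG1 had one of 0.04.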

How the data were processed

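Liver RNA of 24 pig fetuses was measured with 1 array per fetus. The authors checked the arrays with GCOS 1.1.1 and made the deposited log2 values with RMA in Expression Console, with detection calls made separately and not used here. No coordinates are reported, as the build behind the probes was not given in the sources read for this work. Gene symbols came from the platform annotation, with 1 listed symbol (MSMO1) matched through a RefSeq synonym. A probe set was kept if 18 or more of 24 arrays reached a log2 level of 6, after the 75% share in the study's methods. Precision is limited by the number of arrays.

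Each enzyme past the filter was correlated with all kept probe sets of other genes (35200 correlations), with two-sided permutation tests of 100000 resamples, Benjamini-Hochberg adjustment and a call at an adjusted p under 0.05. As a p cannot fall below 1e-05, a call needs at least 8 correlations of about that p at once. limma 3.58.1 regression was an alternative beside Spearman's rho, other limits, other choices of probe set, aligned array medians and leaving out livers. The scan was tested on simulated data with a single simulated enzyme and many planted correlations. That setting cannot show how the floor on p affects the calls here. The genes and lists were chosen with earlier results of these data known. Genes were named in the text if they were enzymes of the list, listed genes called with an enzyme, or the 10 most and 5 least alike by mean r, and further listed genes were named as examples after their values were seen. A gene was said to fall into separate clusters where its widest gap, with 3 or more livers on either side, was larger than 95% of such gaps in simulated normal data. The work used Python 3.11.15, numpy 2.4.6, pandas 2.3.3, scipy 1.17.1, matplotlib 3.10.9 and R 4.3.3.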

Additional observations from a re-analysis of the deposited data

How the results depend on the processing

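None of the 15 pairs among the enzymes was called under any alternative that tested it; with a limit of 7 LSS dropped out and 10 pairs were tested. With the probe sets of largest SD, HMGCS1 had an r of -0.20 with FDPS, -0.19 with LSS and -0.20 with DHCR7. The number of calls over all probe sets, 15 as reported, was 0 with Spearman's rho, 0 with no filter, 0 without the 2 arrays farthest out (fetuses 311 and 312), 8 with the mean of all probe sets, 26 with limma and 26 with a limit of 7. When each liver was left out in turn it lay between 0 and 16. The calls among listed genes, 3 as reported, were 0 with rho, 0 with no filter, 0 without fetuses 311 and 312 and 0 to 3 when each liver was left out. By construction a call needs at least 8 correlations of about the smallest p at once, so these counts can drop to 0 in a step. Further checks were therefore added after seeing the data. With 5000000 resamples for the 70 correlations of lowest p, 15 were called, 13 of them as before: FDPS with PPIA and DHCR7 with SLC35D1 were lost, and FDPS with an ACLY probe set and DHCR7 with an unnamed one were gained. With 1 probe set per listed gene, the listed calls stayed at 3. With limma without fetuses 311 and 312, 42 were called, 5 of them listed. With limma and each liver left out, 4 to 41 were called, 1 to 5 of them listed: the total was 5 without fetus 274, 5 without fetus 281 and 4 without fetus 303, and the listed calls then fell to 1 in each case. FDPS with EBP was called in all 24 of these, FDFT1 with NSDHL in 19 and FDPS with LCAT in 21. With the permutation test of 100000 resamples they were called in 7, 6 and 1 of 24. FDFT1 with NSDHL had an adjusted p of 0.0914 with the mean of all probe sets and 0.594 with the probe sets of largest SD, at an r of 0.69 and 0.31. Median levels moved with the mean of all probe sets to 5.34 for HMGCS1, 7.75 for FDFT1 and 6.25 for DHCR7. Levels near 6 overlap with background controls, which limits LSS, MVK and MVD. No paired analysis was possible because the labels give no growth group or sibling pair for an array.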

Other observations

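MVD, below the filter in all 24 livers, met the rule used here for separate clusters. Its log2 level was 4.87 in fetuses Le377 and 370 and 4.94 in fetus 274, and the other livers lay at 5.14 in fetus 329, 5.16 in 324, 5.18 in 384, 5.19 in 303, 5.23 in 313, 5.26 in 307, 5.27 in 297, 5.28 in 320, 5.30 in 312 and 327, 5.32 in 340, 5.33 in 311 and 363, 5.35 in 281, 283 and 360, 5.36 in 355, 5.39 in 352, 5.40 in 272, 5.48 in 376 and 5.53 in 338. The gap between the low livers and the rest was 1.19 SD. Of 15 genes checked in the same way, this was the only one past the limit. The limit of 95% was not adjusted for 15 checks, so 1 gene past it does not establish true clusters. Fetuses 274, Le377 and 370 were also the 3 lowest livers for FDFT1, at 8.21, 8.34 and 8.33, and fetuses 274 and Le377 were among the 3 lowest for DHCR7, at 6.62 and 7.17, while fetus 370 was at 7.51 for DHCR7 and 9.29 for HMGCS1. No test was made of this overlap, since MVD levels lay under the upper background.

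Listed genes with a named probe set but levels below the filter included the cholesterol esterifying enzyme SOAT1, with log2 levels of 5.06 to 6.44, and the transporters ABCG5, with 1.74 to 4.50, and ABCG8, with 2.90 to 4.14. CYP7A1, the first enzyme of the classical bile acid route, stood at 1.88 to 2.93. These levels lie below or within the upper background.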
